A study of Mus musculus with 8 samples.

Results

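The receptor genes through which blood cells read growth factors were followed in RN2 cells. RN2 is an engineered line of mouse myeloid leukaemia with MLL-AF9 and an NRAS allele labelled G112D. The set was chosen by symbol: Kit, Flt3, Csf1r, Csf2ra, Csf2rb, Csf2rb2, Csf3r, Il3ra and Il6ra, and all 9 were found among the 20484 genes of the deposited expression table. Of these, 8 passed the filter on low values (at least 1 RPKM in at least 2 libraries) and were tested, and Flt3 was not. RPKM are reads scaled to transcript length and library size, so they can be compared between genes.

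The cells, on a C57BL/6J background, had been treated with BBC1115, OTX-015, RVX-208 or the solvent DMSO, with 2 libraries in each of the 4 groups and 8 in all. Every group, DMSO included, carried both oncogenes, and the line stands for 1 engineered leukaemia. OTX-015 (birabresib) and RVX-208 (apabetalone) are known inhibitors of the BET proteins, which bind acetylated histones through paired bromodomains. OTX-015 binds both bromodomains and RVX-208 favours the second, while BBC1115 is known here only by its code name. The sources used here give neither dose nor time of treatment. Per the labels the replicates are biological, though how the cultures were kept apart is not said.

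Growth factor receptors let blood progenitors survive, divide and mature when the matching factor is present. Kit, Flt3 and Csf1r are receptor tyrosine kinases, single chains that pair up on their ligand and carry the kinase inside the cell. The GM-CSF and IL-3 receptors are built of a ligand-specific alpha chain, Csf2ra or Il3ra, and a signalling beta chain, Csf2rb. The mouse also has Csf2rb2, a second beta chain that serves IL-3 alone. Csf3r is the G-CSF receptor, and Il6ra binds IL-6 and signals through gp130, the product of Il6st.

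With BBC1115, 7 of the 8 tested receptor genes fell against DMSO and 0 rose, while 49.3% of all 9975 tested genes fell and 26.4% rose. With OTX-015, 6 of 8 fell and 0 rose, while 40.0% of all tested genes fell and 24.2% rose. With RVX-208, limma's test called 0 of 8 in either direction, beside 0.17% of all tested genes called in either direction, and 0 of the 8 had an unadjusted p under 0.05. That comparison called 9 genes higher and 8 lower, but 625 higher and 360 lower without DMSO replicate 2, and 0 of the 8 receptors then too. The tests are two-sided, from limma on log2(RPKM + 1), with p-values adjusted by Benjamini-Hochberg over all tested genes and called below 0.05. The median log2 fold change of the 8 genes was -1.76 with BBC1115, -0.73 with OTX-015 and -0.07 with RVX-208, where the median of all tested genes was -0.249 with BBC1115, -0.134 with OTX-015 and 0.018 with RVX-208. After upper-quartile scaling the median of all genes was -0.018 with BBC1115 and 0.035 with OTX-015, so small log2 changes are to be read against that shift. Since RNA came from whole cultures, fewer cells of a type and less RNA per cell cannot be told apart.

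**Figure D1:**
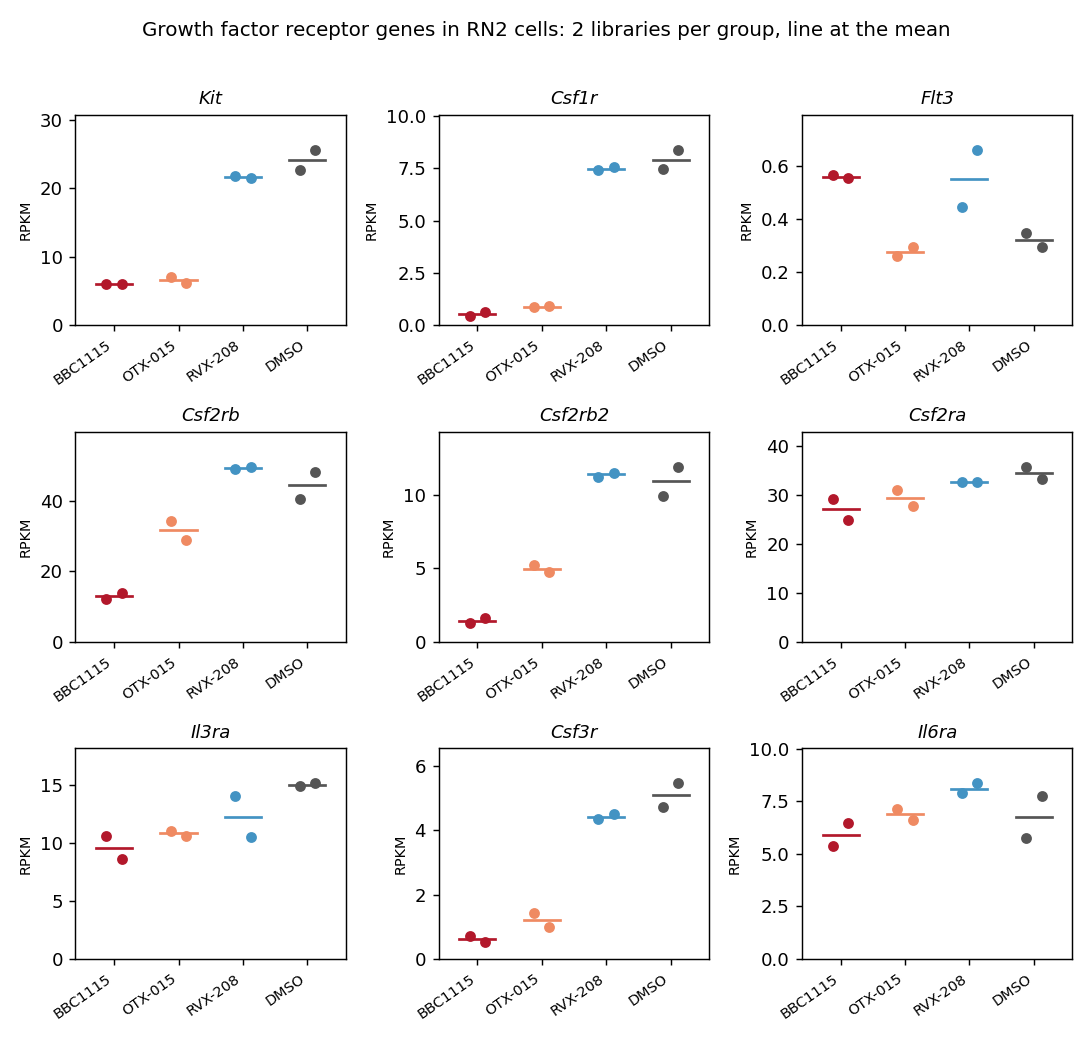
RPKM of the 9 receptor genes (vertical axes, linear, from 0) in the BBC1115, OTX-015, RVX-208 and DMSO groups. Points are the 2 libraries of a group and lines their mean. Kit, Csf1r, Csf3r and Csf2rb2 sit far lower with BBC1115 and OTX-015 than with RVX-208 and DMSO, whereas Csf2ra and Il6ra differ little.

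The start regions of the genes are shown first. They were searched for the core of PU.1 (Spi1), a known activator of myeloid receptor genes, and for other motifs. Spi1 was among the 14 of 21 tested factors known to act on receptor genes that fell with BBC1115, beside 49.3% of all tested genes. Whether PU.1 had a part in the receptor changes was not tested. RefSeq promoter sequences of GRCm38.p6, from 250 bases before to 50 bases after each start, were matched for 7 of the 9 genes. Csf1r and Csf2rb had none. The PU.1 core GAGGAA, read on both strands, was found in 5 of the 7, those of Kit, Csf2ra, Csf2rb2, Csf3r and Il6ra, beside 28.3% of 27025 promoters of the same length and 26.3% of the 7836 promoters of tested genes. Capitals mark the match, written TTCCTC where it lies on the other strand.

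Kit, chr5:75574737-75575036, plus strand: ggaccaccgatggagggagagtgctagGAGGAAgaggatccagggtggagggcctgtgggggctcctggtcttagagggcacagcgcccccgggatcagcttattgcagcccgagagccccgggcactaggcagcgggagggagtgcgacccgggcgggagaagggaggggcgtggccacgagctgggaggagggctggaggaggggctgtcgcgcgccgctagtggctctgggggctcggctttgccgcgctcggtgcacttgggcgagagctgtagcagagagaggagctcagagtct
Csf3r, chr4:126024409-126024708, plus strand: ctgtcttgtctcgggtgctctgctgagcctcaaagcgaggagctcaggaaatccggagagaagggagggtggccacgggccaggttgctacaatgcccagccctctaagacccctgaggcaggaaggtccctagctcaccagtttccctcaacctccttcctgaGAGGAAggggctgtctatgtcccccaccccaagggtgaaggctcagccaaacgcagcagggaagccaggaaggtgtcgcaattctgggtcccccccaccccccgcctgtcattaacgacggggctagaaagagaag
Csf2rb2, chr15:78305672-78305971, minus strand: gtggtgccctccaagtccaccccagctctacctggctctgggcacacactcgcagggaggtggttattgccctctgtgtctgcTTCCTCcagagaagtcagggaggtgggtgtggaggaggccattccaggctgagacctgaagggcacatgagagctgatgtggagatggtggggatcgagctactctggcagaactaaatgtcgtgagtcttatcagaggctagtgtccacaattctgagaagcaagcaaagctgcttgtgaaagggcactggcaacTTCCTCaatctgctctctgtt
Csf2ra, chr19:61228369-61228668, minus strand: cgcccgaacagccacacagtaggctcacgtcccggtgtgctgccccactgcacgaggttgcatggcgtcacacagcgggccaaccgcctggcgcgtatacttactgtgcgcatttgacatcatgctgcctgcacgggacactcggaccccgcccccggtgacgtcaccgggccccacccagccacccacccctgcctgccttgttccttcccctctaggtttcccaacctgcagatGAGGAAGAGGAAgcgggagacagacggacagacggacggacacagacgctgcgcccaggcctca

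The match begins 223 bases before the start in Kit, 86 bases before it in Csf3r, and 167 bases before and 29 bases after it in Csf2rb2. In Csf2ra a pair of copies stands end to end just before the start. Csf2ra and Il6ra, with log2 fold changes of -0.34 and -0.16 against DMSO under BBC1115, hold the match, as do Kit, Csf2rb2 and Csf3r, whose changes were between -2.27 and -1.83. RUNX (TGTGGT) was found in 0 of the 7 promoters, beside 16.9% of all. A C/EBP half-site pair (TTGCNNAA) was found in Il3ra, beside 10.8% of all promoters, and a GATA core (AGATAA) in Il6ra, beside 11.4%. The E-box CACGTG was found in Flt3 and Il6ra, beside 7.24%. These matches describe letters only, and no binding was measured.

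Among the receptor tyrosine kinases, Kit and Csf1r fell with BBC1115 and with OTX-015. Kit, the receptor for stem cell factor (ENSMUSG00000005672, GRCm38 chr5:75574916-75656722, plus strand), had 6.01 and 6.09 RPKM with BBC1115, 7.05 and 6.19 RPKM with OTX-015, 21.8 and 21.5 RPKM with RVX-208, and 22.7 and 25.6 RPKM with DMSO. The BBC1115 and OTX-015 libraries were all well below the others, and the RVX-208 libraries lay just under the DMSO ones. Against DMSO, Kit was 3.99-fold lower with BBC1115 (log2 fold change -1.83, 95% interval -2.05 to -1.61, adjusted p = 2.9e-08). It was 3.65-fold lower with OTX-015 (-1.72, interval -1.94 to -1.51, adjusted p = 1.42e-07). With RVX-208 the difference was -0.15 (interval -0.37 to 0.07, adjusted p = 0.419). Folds are ratios of mean RPKM, whereas log2 fold changes are on the log2(RPKM + 1) scale, which understates the change of genes at low levels.

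Kit is also a mast cell receptor, and the markers of mast cells and basophils moved with it. Of 10 listed markers 5 were tested, and all 5 fell with BBC1115 and with OTX-015, beside 49.3% and 40.0% of all tested genes. The RPKM of all 10 listed markers summed to 32.7 to 33.4 with BBC1115, 35.6 to 38.9 with OTX-015, 68.2 to 72.4 with RVX-208 and 77.1 to 84.2 with DMSO. The tryptases Tpsb2 and Tpsab1, the protease Prss34 and the IgE receptor chain Fcer1a were at 0 in all libraries, while Cpa3, Mcpt8 and Gata2, the last also on the list of transcription factors, were present. The part of these markers in the Kit result was not tested.

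Csf1r, the receptor for M-CSF and IL-34 (ENSMUSG00000024621, GRCm38 chr18:61100598-61132149, plus strand), had 0.433 and 0.635 RPKM with BBC1115, 0.891 and 0.917 RPKM with OTX-015, 7.43 and 7.56 RPKM with RVX-208, and 7.45 and 8.38 RPKM with DMSO. It was under 1 RPKM in each BBC1115 and OTX-015 library and above 7 RPKM in each of the others. Against DMSO it was 14.8-fold lower with BBC1115 (-2.54, interval -2.79 to -2.29, adjusted p = 7.07e-09) and 8.75-fold lower with OTX-015 (-2.23, interval -2.47 to -1.98, adjusted p = 6.59e-08). With RVX-208 it differed by -0.07 (interval -0.32 to 0.18, adjusted p = 0.765). The change with BBC1115 gave the lowest log2 fold change of the 8 tested receptors. At the lowest level Csf1r rested on an estimated 27 reads, beside 630 at its highest.

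Csf1r exons overlap those of Hmgxb3, a gene on the opposite strand, over 873 bases, and the sources used here do not say whether the counting used strand. Hmgxb3 had 12.9 and 14.0 RPKM with BBC1115, 14.9 and 12.2 RPKM with OTX-015, 11.6 and 11.6 RPKM with RVX-208, and 9.21 and 11.6 RPKM with DMSO. It rose by 0.35 log2 with BBC1115 (adjusted p = 0.0253) and by 0.35 with OTX-015 (adjusted p = 0.0278), opposite to Csf1r.

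Most monocyte markers fell, though their median changed less than Csf1r. It was -0.5 with BBC1115 and -0.7 with OTX-015, beside -2.54 and -2.23 for Csf1r. Of 8 tested markers, 1 rose and 6 fell with BBC1115, and 0 rose and 7 fell with OTX-015. Among all tested genes 49.3% and 40.0% fell. The 11 listed markers in the data summed to 1730 to 2000 RPKM with BBC1115, 1470 to 1610 with OTX-015, 1790 to 1850 with RVX-208 and 2010 to 2270 with DMSO. The BBC1115 sums thus overlapped those of RVX-208. Ccr2 and Cd14 had the largest falls among markers with at least 5 RPKM in a group. Cd14, the co-receptor for lipopolysaccharide, averaged 0.718 ± 0.0313 RPKM with BBC1115 and 18.2 ± 0.0952 RPKM with DMSO (SD, n = 2 each, here and after each ± sign). The chemokine receptor Ccr2 averaged 0.932 ± 0.00519 RPKM with BBC1115 and 21.1 ± 0.173 RPKM with DMSO. Cd68, a lysosomal protein of macrophages, fell less, to 24.2 ± 0.795 RPKM with BBC1115, against 35.6 ± 1.57 RPKM with DMSO (log2 fold change -0.54), close to the median of the 8 markers (-0.5). Ccr2 also fell with RVX-208, to 9.8 ± 0.393 RPKM (log2 fold change -1.03, adjusted p = 0.000952). The part of these markers in the Csf1r result was not tested.

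Flt3, the receptor for FLT3 ligand (ENSMUSG00000042817, GRCm38 chr5:147330741-147400489, minus strand), was below 1 RPKM in every library and so was not tested. It had 0.565 and 0.554 RPKM with BBC1115, 0.262 and 0.295 RPKM with OTX-015, 0.446 and 0.661 RPKM with RVX-208, and 0.347 and 0.294 RPKM with DMSO. The BBC1115 and RVX-208 libraries were all above the OTX-015 and DMSO ones, which overlapped each other. Such values rest on an estimated 14 to 34 reads per library. With no filter on low values, Flt3 was 0.24 log2 higher with BBC1115 than with DMSO (interval 0.08 to 0.4, adjusted p = 0.0195) and 0.29 higher than with OTX-015 (interval 0.13 to 0.45, adjusted p = 0.0211). The same fit gave 0.23 with RVX-208 against DMSO (adjusted p = 0.262), and Flt3 was lower with OTX-015 than with RVX-208 (log2 fold change -0.28, interval -0.44 to -0.12, adjusted p = 0.0172). It was the single receptor whose mean RPKM was above DMSO with BBC1115.

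Both beta chains fell with BBC1115, and less with OTX-015. Csf2rb, the beta chain shared by the GM-CSF, IL-3 and IL-5 receptors (ENSMUSG00000071713, GRCm38 chr15:78325752-78353847, plus strand), had 12.2 and 13.9 RPKM with BBC1115, 34.3 and 29.0 RPKM with OTX-015, 48.9 and 49.6 RPKM with RVX-208, and 40.6 and 48.0 RPKM with DMSO. The groups did not overlap, and the RVX-208 libraries stood highest. That difference from DMSO was not called (log2 fold change 0.15, interval -0.09 to 0.4, adjusted p = 0.458). Against DMSO, Csf2rb was 3.4-fold lower with BBC1115 (-1.69, interval -1.93 to -1.44, adjusted p = 1.23e-07) and 1.4-fold lower with OTX-015 (-0.47, interval -0.72 to -0.23, adjusted p = 0.00311). The OTX-015 call was lost after conversion to TPM (-0.29, adjusted p = 0.0876).

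Csf2rb2, the mouse beta chain of the IL-3 receptor (ENSMUSG00000071714, GRCm38 chr15:78282507-78305721, minus strand), had 1.3 and 1.63 RPKM with BBC1115, 5.21 and 4.73 RPKM with OTX-015, 11.2 and 11.5 RPKM with RVX-208, and 9.92 and 11.9 RPKM with DMSO. The levels fell into 3 tiers, with RVX-208 and DMSO overlapping at the top. Against DMSO, Csf2rb2 was 7.48-fold lower with BBC1115 (-2.27, interval -2.54 to -2.01, adjusted p = 2.28e-08) and 2.2-fold lower with OTX-015 (-0.99, interval -1.26 to -0.73, adjusted p = 2.96e-05). With RVX-208 the difference was 0.06 (interval -0.2 to 0.32, adjusted p = 0.817).

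The beta chain genes lie 20030 bases apart on opposite strands of chromosome 15 and are near copies. In GRCm38 their coding sequences run to 2688 bases for Csf2rb and 2634 bases for Csf2rb2 and were 92.9% identical over the alignment, with 125 mismatches and a longest identical run of 242 bases. The opening 90 coding bases are shown because they let the likeness be seen; capitals mark the 3 bases that differ.

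Csf2rb: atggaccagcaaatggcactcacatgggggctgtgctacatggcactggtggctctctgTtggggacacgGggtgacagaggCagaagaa
Csf2rb2: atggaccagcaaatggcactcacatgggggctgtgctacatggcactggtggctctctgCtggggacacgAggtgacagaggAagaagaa

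Of the 50-base windows of the transcripts, 18.4% of those of Csf2rb and 19.4% of those of Csf2rb2 occur in another gene too, nearly all in the partner. The sources used here do not say how such reads were divided, so the split between the pair is uncertain. With both genes summed, the log2 fold change against DMSO was -1.86 with BBC1115 (adjusted p = 5.91e-08) and -0.58 with OTX-015 (adjusted p = 0.000847).

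The balance of the beta chains is given as a ratio, within the limit that shared reads set. Csf2rb2 over Csf2rb was 0.106 and 0.117 in the BBC1115 libraries, 0.152 and 0.163 with OTX-015, 0.23 and 0.232 with RVX-208, and 0.244 and 0.249 with DMSO. The groups did not overlap. The ratios were not tested: with 2 libraries against 2, an exact permutation test cannot go below p = 0.333.

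With BBC1115 the log2 fold changes of the alpha chains were -0.34 for Csf2ra and -0.6 for Il3ra, beside -1.69 for Csf2rb and -2.27 for Csf2rb2. With OTX-015 Il3ra (-0.44) and Csf2rb (-0.47) lay close together. Csf2ra, the GM-CSF receptor alpha chain (ENSMUSG00000059326, GRCm38 chr19:61223957-61228429, minus strand), had 29.1 and 24.9 RPKM with BBC1115, 30.9 and 27.7 RPKM with OTX-015, 32.5 and 32.6 RPKM with RVX-208, and 35.7 and 33.2 RPKM with DMSO. The BBC1115 and OTX-015 libraries overlapped each other and lay below those of DMSO. The log2 fold change was -0.34 with BBC1115 (interval -0.56 to -0.13, adjusted p = 0.00714) and -0.23 with OTX-015 (interval -0.44 to -0.01, adjusted p = 0.06). With RVX-208 it was -0.08 (interval -0.29 to 0.14, adjusted p = 0.674). The BBC1115 call was lost after upper-quartile scaling (-0.09, adjusted p = 0.266), after quantile normalization (-0.11, adjusted p = 0.184) and without BBC1115 replicate 2 (-0.24, adjusted p = 0.0836). The OTX-015 difference passed the threshold without OTX-015 replicate 1 (-0.3, adjusted p = 0.0477) or BBC1115 replicate 2 (adjusted p = 0.0496).

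Il3ra, the IL-3 receptor alpha chain (ENSMUSG00000068758, GRCm38 chr14:14346275-14356011, plus strand), had 10.6 and 8.56 RPKM with BBC1115, 11.0 and 10.6 RPKM with OTX-015, 14.0 and 10.5 RPKM with RVX-208, and 14.9 and 15.1 RPKM with DMSO. All libraries of the 3 compounds lay below DMSO, and the RVX-208 pair was spread the most. It fell by 0.6 on the log2 scale with BBC1115 (interval -0.9 to -0.31, adjusted p = 0.00164) and by 0.44 with OTX-015 (interval -0.73 to -0.14, adjusted p = 0.0143). With RVX-208 the difference of -0.28 was not called (interval -0.58 to 0.01, adjusted p = 0.29). The BBC1115 call was lost after quantile normalization (adjusted p = 0.0569). The OTX-015 call was lost after upper-quartile scaling (adjusted p = 0.118), quantile normalization (adjusted p = 0.063), conversion to TPM (adjusted p = 0.124) and without OTX-015 replicate 1 (adjusted p = 0.0601) or 2 (adjusted p = 0.0892).

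**Figure D2:**
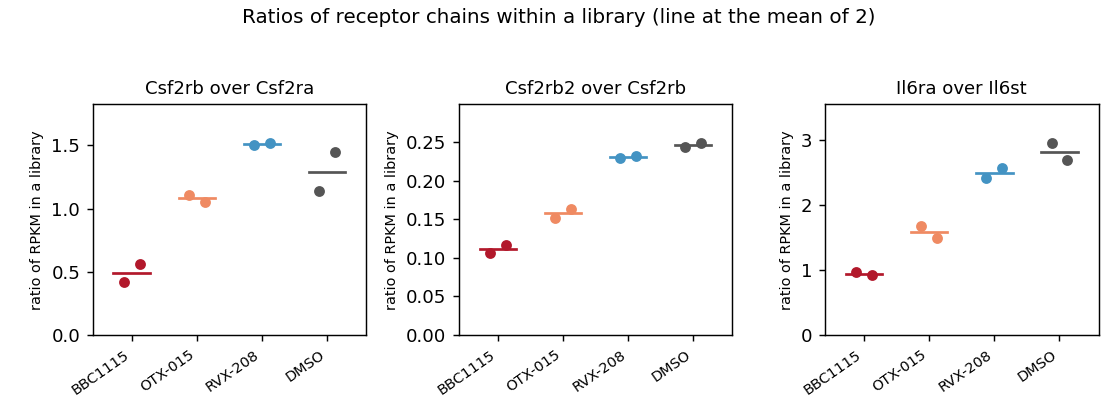
Ratios of RPKM within a library (vertical axes, from 0) for Csf2rb over Csf2ra, Csf2rb2 over Csf2rb and Il6ra over Il6st, by group. Points are the 2 libraries of a group and lines their mean. All 3 ratios are lowest with BBC1115, and Csf2rb over Csf2ra is below 1 there (0.419 and 0.559).

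In the GM-CSF receptor pair, the alpha chain RNA outnumbered the beta chain RNA with BBC1115 alone of the 4 groups. Csf2rb over Csf2ra was 0.419 and 0.559 in the BBC1115 libraries, 1.11 and 1.05 with OTX-015, 1.5 and 1.52 with RVX-208, and 1.14 and 1.45 with DMSO. Csf2rb over Il3ra followed, at 1.15 and 1.62 with BBC1115, 3.11 and 2.74 with OTX-015, 3.5 and 4.73 with RVX-208, and 2.73 and 3.19 with DMSO. Adding Csf2rb2 to the beta chain left the BBC1115 ratios to Csf2ra at 0.464 and 0.624, against 1.42 and 1.81 with DMSO. These are ratios of RNA, and the amount of receptor protein was not measured.

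Csf3r fell with BBC1115 and OTX-015. This receptor for G-CSF, the factor of neutrophil output (ENSMUSG00000028859, GRCm38 chr4:126024550-126044440, plus strand), had 0.722 and 0.541 RPKM with BBC1115, 1.43 and 0.991 RPKM with OTX-015, 4.34 and 4.51 RPKM with RVX-208, and 4.73 and 5.46 RPKM with DMSO. The groups did not overlap, and the gap lay between OTX-015 and RVX-208. It was 8.07-fold lower with BBC1115 (-1.9, interval -2.19 to -1.62, adjusted p = 1.64e-07) and 4.21-fold lower with OTX-015 (-1.47, interval -1.75 to -1.18, adjusted p = 3.17e-06). RVX-208 differed by -0.17 (interval -0.45 to 0.12, adjusted p = 0.492). Of its 50-base transcript windows, 11.2% occur in another gene, chiefly AC105061.2, so a part of its reads could have been divided.

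Neutrophil markers fell beside Csf3r, 10 of 11 tested with BBC1115 and 11 of 11 with OTX-015, where 49.3% and 40.0% of all tested genes fell. Their median log2 fold change was -0.48 with BBC1115 and -0.56 with OTX-015, beside -1.9 and -1.47 for Csf3r. The 14 listed markers summed to 4450 to 5180 RPKM with BBC1115, 4490 to 4820 with OTX-015, 6670 to 6710 with RVX-208 and 7000 to 8370 with DMSO. Ctsg, cathepsin G, averaged 507 ± 34.2 RPKM with BBC1115, 652 ± 27.2 RPKM with OTX-015 and 1790 ± 187 RPKM with DMSO. Its change with BBC1115 (-1.81) was the largest among markers with at least 5 RPKM in a group, before Camp (-0.67) and Lcn2 (-0.55). The part of these markers in the Csf3r result was not tested.

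Il6ra did not pass the test with any compound against DMSO. The IL-6 receptor alpha chain (ENSMUSG00000027947, GRCm38 chr3:89864059-89913196, minus strand) had 5.36 and 6.45 RPKM with BBC1115, 7.13 and 6.63 RPKM with OTX-015, 7.88 and 8.35 RPKM with RVX-208, and 5.75 and 7.76 RPKM with DMSO. Exons of Il6ra, and to a lesser length those of Il3ra, overlap an annotated antisense gene, whose reads cannot be told apart without strand. The DMSO pair of Il6ra was widely spread and overlapped the BBC1115 and OTX-015 libraries. The log2 fold change was -0.16 with BBC1115 (interval -0.46 to 0.14, adjusted p = 0.297), 0.04 with OTX-015 (interval -0.26 to 0.33, adjusted p = 0.828) and 0.24 with RVX-208 (interval -0.05 to 0.54, adjusted p = 0.347). The sign with BBC1115 turned after upper-quartile scaling (0.06) and quantile normalization (0.16). Without DMSO replicate 1 the BBC1115 difference was -0.35 and passed the test (adjusted p = 0.0295).

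Il6st, which encodes gp130, the signalling chain that Il6ra needs, rose with BBC1115 and OTX-015. It had 5.56 and 7.02 RPKM with BBC1115, 4.26 and 4.44 RPKM with OTX-015, 3.26 and 3.25 RPKM with RVX-208, and 1.94 and 2.89 RPKM with DMSO. Each compound's libraries were above both DMSO libraries. The log2 fold change was 1.1 with BBC1115 (interval 0.78 to 1.42, adjusted p = 3.32e-05), 0.66 with OTX-015 (interval 0.34 to 0.98, adjusted p = 0.00212) and 0.33 with RVX-208 (interval 0.01 to 0.65, adjusted p = 0.266). Il6ra over Il6st was 0.963 and 0.918 with BBC1115, 1.68 and 1.49 with OTX-015, 2.42 and 2.57 with RVX-208, and 2.96 and 2.69 with DMSO. RNA of the binding chain exceeded that of the signalling chain in every library but those of BBC1115.

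**Figure D3:**
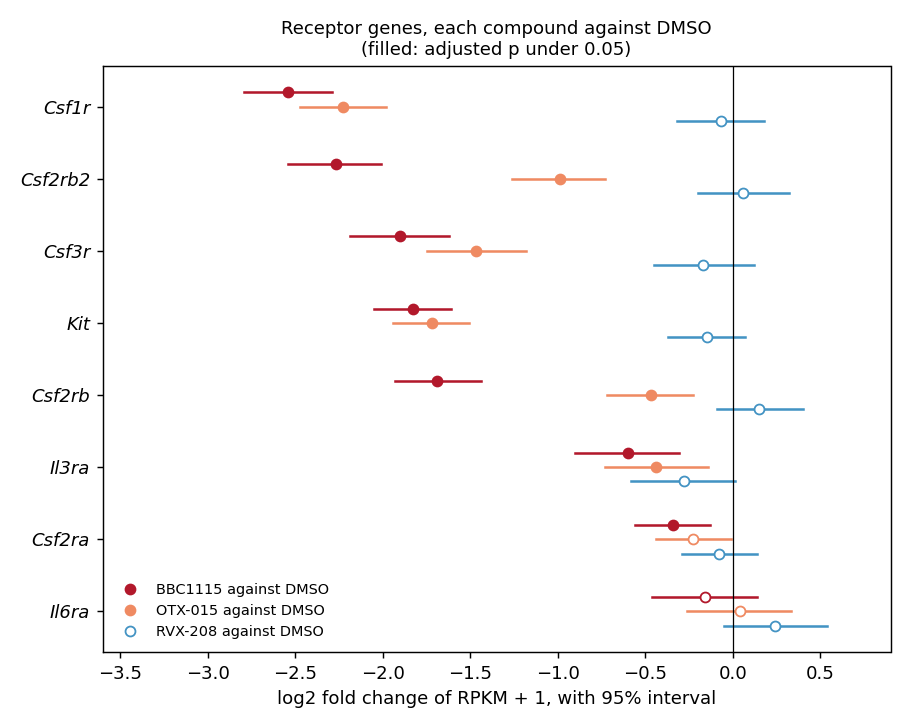
Log2 fold change of RPKM + 1 against DMSO for the 8 tested receptor genes (rows), with bars for the 95% interval. Red is BBC1115, orange OTX-015 and blue RVX-208, and a filled point has an adjusted p under 0.05. Csf1r is farthest to the left with BBC1115 (-2.54) and OTX-015 (-2.23), all RVX-208 points are open, and Il6ra is open for all 3 compounds.

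The receptors changed place in order of level. With DMSO the order of mean RPKM was Csf2rb, Csf2ra, Kit, Il3ra, Csf2rb2, Csf1r, Il6ra, Csf3r and Flt3, in which Csf1r and Il6ra overlapped and all other neighbours were apart. Csf2rb with DMSO stood above 81.7% of the tested genes and Csf3r above 24.0%. With BBC1115 the order was Csf2ra, Csf2rb, Il3ra, Kit, Il6ra, Csf2rb2, Csf3r, Flt3 and Csf1r, in which Kit and Il6ra overlapped, as did Csf3r, Flt3 and Csf1r in turn. With OTX-015 the overlapping pairs were Csf2rb with Csf2ra and Il6ra with Kit. With RVX-208 the single overlapping pair was Il3ra with Csf2rb2.

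The RPKM of the 9 genes summed to 66.2 and 63.2 with BBC1115, 98.1 and 87.1 with OTX-015, 148 and 147 with RVX-208, and 142 and 156 with DMSO. Csf2ra made up 43.9% and 39.4% of the sum with BBC1115, and 25.1% and 21.3% of it with DMSO. Csf2rb made up 18.4% and 22.0% of it with BBC1115, and 28.6% and 30.8% with DMSO. The leading chain thus differed between BBC1115 and DMSO cells.

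Set against each other, BBC1115 and OTX-015 differed most on the beta chains, and RVX-208 differed from both on most receptors. As doses and times are not given, these are differences between the samples as treated, not between compounds at a matched dose, and p-values are adjusted over all 9975 tested genes within each of the 3 pairs. BBC1115 against OTX-015 called 4 of the 8 receptors lower and 0 higher, beside 29.7% of all tested genes called lower and 14.2% higher. Csf2rb was 2.42-fold lower with BBC1115 than with OTX-015 (-1.21, interval -1.46 to -0.97, adjusted p = 1.57e-05), and Csf2rb2 was 3.4-fold lower (-1.28, interval -1.54 to -1.02, adjusted p = 1.74e-05). Both calls held in all 18 alternative settings tried on them, and for Csf2rb also with Csf2rb2 added to it.

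The other calls of that pair were weaker. Csf3r was 0.43 log2 lower with BBC1115 than with OTX-015 (interval -0.72 to -0.15, adjusted p = 0.0196) and was called in 13 of 17 settings. Csf1r was 0.32 lower (interval -0.56 to -0.07, adjusted p = 0.0421) and was called in 9 of 18. For Csf3r the call was lost without OTX-015 replicate 1 (adjusted p = 0.141) or BBC1115 replicate 2 (adjusted p = 0.108). For Csf1r it was lost without either RVX-208 replicate (adjusted p = 0.0673 and 0.0676), OTX-015 replicate 1 (0.104) or 2 (0.118), or BBC1115 replicate 1 (0.254). Kit did not pass the test (-0.11, interval -0.33 to 0.11, adjusted p = 0.398), nor did Csf2ra (-0.12, interval -0.33 to 0.1), Il3ra (-0.17, interval -0.46 to 0.13) or Il6ra (-0.2, interval -0.49 to 0.1). Csf2ra was called lower on the TPM scale (-0.27, adjusted p = 0.00812).

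BBC1115 against RVX-208 called 7 of 8 receptors lower and 0 higher, beside 49.6% of all tested genes called lower and 23.9% higher. Csf1r was 14.0-fold lower (-2.47, interval -2.72 to -2.22, adjusted p = 1.1e-08) and Csf2rb2 7.77-fold lower (-2.33, interval -2.59 to -2.07, adjusted p = 2.27e-08). Il6ra was called here (-0.4, interval -0.7 to -0.11, adjusted p = 0.018), though in 13 of 18 settings, and was lost without RVX-208 replicate 2 (adjusted p = 0.083) or BBC1115 replicate 1 (0.131), with no filter (0.0542), and after upper-quartile scaling (0.206) or quantile normalization (0.862). Csf2ra was also called (-0.27, adjusted p = 0.0276) and was lost in 5 of 18 settings. Those were upper-quartile scaling (adjusted p = 0.585), quantile normalization (0.483) and leaving out RVX-208 replicate 1 (0.101) or 2 (0.109) or BBC1115 replicate 2 (0.236). Il3ra, at -0.32 (interval -0.61 to -0.02), missed the threshold (adjusted p = 0.0501) but passed it in 7 of 18 settings, among them without RVX-208 replicate 2 (-0.51, adjusted p = 0.00821), BBC1115 replicate 1 (adjusted p = 0.0197) or DMSO replicate 1 (0.0331) or 2 (0.0334).

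OTX-015 against RVX-208 called 5 of 8 receptors lower and 0 higher, beside 38.1% of all tested genes called lower and 17.6% higher. These were Csf1r (-2.16, adjusted p = 1.32e-07), Kit (-1.57, adjusted p = 4.44e-07), Csf3r (-1.3, adjusted p = 1.2e-05), Csf2rb2 (-1.05, adjusted p = 2.83e-05) and Csf2rb (-0.63, adjusted p = 0.000657). Each of these 5 was called in every setting tried. The intervals of Csf2ra (-0.36 to 0.06), Il3ra (-0.45 to 0.14) and Il6ra (-0.51 to 0.09) held 0.

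**Figure D4:**
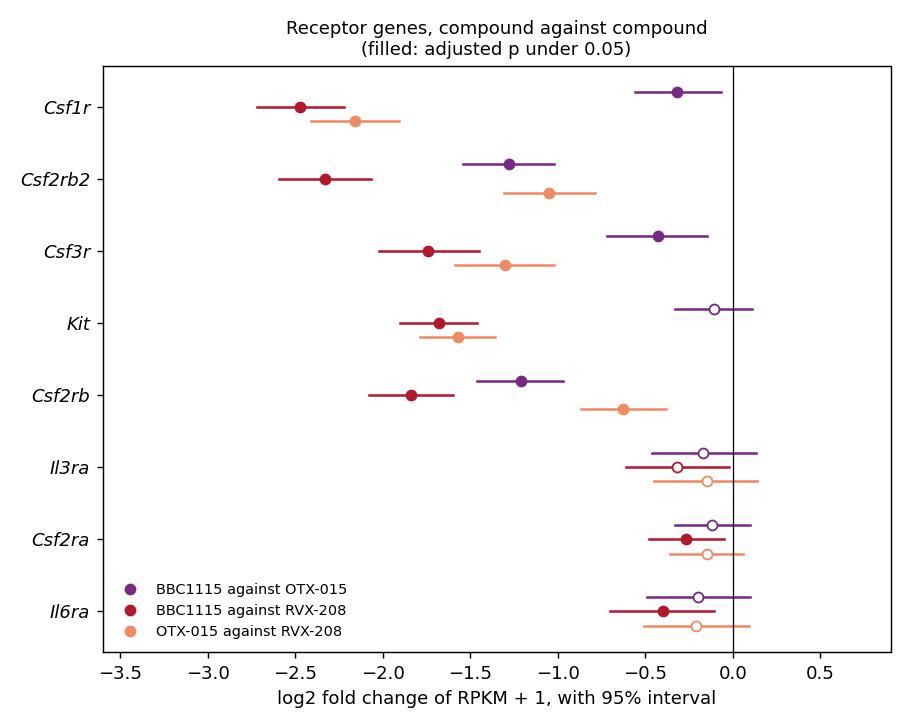
Log2 fold change of RPKM + 1 between compounds for the 8 tested receptor genes (rows), with bars for the 95% interval. Purple is BBC1115 against OTX-015, red BBC1115 against RVX-208 and orange OTX-015 against RVX-208, and a filled point has an adjusted p under 0.05. In BBC1115 against OTX-015 the beta chains Csf2rb (-1.21) and Csf2rb2 (-1.28) stand apart from the other receptors, and Kit (-0.11) is open.

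Few ligands of these receptors were detected in the cells. Of 9 ligand genes, 2 reached the filter, Il3 and Il5 were at 0 in all libraries, and the remaining 5 stayed below 1 RPKM. Flt3l, the FLT3 ligand, had 0.369 and 0.229 RPKM with BBC1115, 0.481 and 0.586 RPKM with OTX-015, 1.64 and 2.05 RPKM with RVX-208, and 2.28 and 2.1 RPKM with DMSO. It fell by 1.3 on the log2 scale with BBC1115 (adjusted p = 2.24e-06) and by 1.06 with OTX-015 (adjusted p = 2.4e-05), while its receptor Flt3 did not fall with BBC1115. Csf1, which encodes the M-CSF bound by Csf1r, had 1.76 and 1.53 RPKM with BBC1115, 1.94 and 1.7 RPKM with OTX-015, 3.55 and 3.68 RPKM with RVX-208, and 3.62 and 3.85 RPKM with DMSO. Its log2 fold change was -0.84 with BBC1115 (adjusted p = 3.02e-05) and -0.75 with OTX-015 (adjusted p = 0.00013), in the direction of its receptor.

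Other cytokine receptor chains moved both ways. Of 17 tested of 32 listed, 5 rose and 10 fell with BBC1115, 4 rose and 6 fell with OTX-015, and 0 were called with RVX-208. The shares of all tested genes were 26.4% higher and 49.3% lower with BBC1115, 24.2% and 40.0% with OTX-015, and 0.17% either way with RVX-208. Ifngr1, the interferon gamma receptor's binding chain, averaged 47.3 ± 1.43 RPKM with BBC1115, 60.3 ± 5.89 RPKM with OTX-015 and 172 ± 11.0 RPKM with DMSO (adjusted p = 1.5e-08 with BBC1115 and 2.06e-07 with OTX-015). Il10rb, a chain shared by IL-10 family receptors, averaged 6.43 ± 0.663 RPKM with BBC1115, 13.5 ± 1.87 RPKM with OTX-015 and 29.3 ± 2.11 RPKM with DMSO (adjusted p = 3.24e-08 with BBC1115 and 1.13e-05 with OTX-015). Ifnar2, a chain of the type I interferon receptor, averaged 18.9 ± 2.32 RPKM with BBC1115 and 46.3 ± 0.327 RPKM with DMSO (adjusted p = 3.54e-07). Il17ra went the other way, at 49.7 ± 2.51 RPKM with OTX-015 and 24.8 ± 1.01 RPKM with DMSO (log2 fold change 0.97, adjusted p = 2.47e-06).

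Of 20 other receptor tyrosine kinases, 5 were tested, and Kdr, Egfr and Erbb2 were among those at 0 throughout. Of the 5 tested, 0 rose and 4 fell with BBC1115, and 1 rose and 4 fell with OTX-015. The shares of all tested genes were 26.4% higher and 49.3% lower with BBC1115, and 24.2% and 40.0% with OTX-015. Igf1r, the IGF-1 receptor, fell to 4.75 ± 0.596 RPKM with BBC1115 (adjusted p = 6.38e-08) and 8.1 ± 0.678 RPKM with OTX-015 (adjusted p = 3.32e-06), against 23.1 ± 3.89 RPKM with DMSO. Insr, the insulin receptor, was the one that rose with OTX-015, at 6.94 ± 0.692 RPKM, against 4.68 ± 0.766 RPKM with DMSO (adjusted p = 0.00522).

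Inside the cell, genes of receptor signalling and turnover moved both ways. With OTX-015 more of them rose than fell, whereas among all tested genes more fell than rose. Of 26 tested, 9 rose and 11 fell with BBC1115, 10 rose and 4 fell with OTX-015, and 0 were called with RVX-208. Among all tested genes 26.4% rose and 49.3% fell with BBC1115, 24.2% rose and 40.0% fell with OTX-015, and 0.17% were called with RVX-208. Sh2b3, an adaptor that restrains cytokine receptor signalling, averaged 61.3 ± 1.15 RPKM with BBC1115, 50.3 ± 4.48 RPKM with OTX-015 and 21.6 ± 1.31 RPKM with DMSO. Btk, a kinase of the Tec family, averaged 14.1 ± 0.521 RPKM with BBC1115, 28.2 ± 1.0 RPKM with OTX-015 and 64.8 ± 5.25 RPKM with DMSO. Ptpn6, the phosphatase SHP-1 that acts on Kit and on beta chain receptors, averaged 37.3 ± 0.923 RPKM with BBC1115 and 110 ± 1.51 RPKM with DMSO. Stat3, which acts downstream of Csf3r and gp130, averaged 39.7 ± 1.87 RPKM with OTX-015 and 19.2 ± 2.18 RPKM with DMSO. These differences from DMSO all passed the test, with adjusted p between 3.38e-09 (Btk with BBC1115) and 6.28e-06 (Stat3 with OTX-015).

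Transcription factors known to act on receptor genes were nearly all changed. Of 21 tested, 5 rose and 14 fell with BBC1115 and likewise with OTX-015, and with RVX-208 1 rose, Egr1, and 1 fell, Myc. For all tested genes the shares were 26.4% higher and 49.3% lower with BBC1115, 24.2% and 40.0% with OTX-015, and 0.17% either way with RVX-208. Spi1, whose product PU.1 binds the core printed above, had 16.4 and 14.1 RPKM with BBC1115, 58.8 and 50.8 RPKM with OTX-015, 135 and 142 RPKM with RVX-208, and 158 and 148 RPKM with DMSO. The BBC1115 libraries were lowest and the OTX-015 ones next, as they were for Csf1r, Csf2rb, Csf2rb2 and Csf3r. Kit had this order too, but its difference between BBC1115 and OTX-015 did not pass limma's test (adjusted p = 0.398). Runx1, Myb and Gfi1 shared the order, and Myb (log2 fold change -3.55) and Gfi1 (-4.59) fell by more than Spi1 with BBC1115. Whether any of these factors had a part in the receptor changes was not tested. How many of all tested genes had the order of Spi1 was not counted, but 29.7% were called lower with BBC1115 than with OTX-015. The log2 fold change of Spi1 was -3.25 with BBC1115 (adjusted p = 5.77e-10), -1.47 with OTX-015 (adjusted p = 4.83e-07) and -1.78 for BBC1115 against OTX-015 (adjusted p = 7.76e-07). Runx1, the RUNX factor, averaged 0.49 ± 0.0689 RPKM with BBC1115, 1.11 ± 0.0603 RPKM with OTX-015, 4.85 ± 0.211 RPKM with RVX-208 and 5.28 ± 0.245 RPKM with DMSO. Cebpa, a C/EBP factor of granulocyte genes, averaged 36.3 ± 1.54 RPKM with BBC1115 and 39.5 ± 1.65 RPKM with DMSO (-0.12, adjusted p = 0.251), but fell with OTX-015, to 24.8 ± 2.54 RPKM (-0.65, adjusted p = 9.54e-05). Spi1, Runx1 and Cebpa are named for the motifs searched, and Myb for its order of levels. Hmgxb3, Il6st and the neighbours below are named for their place beside a receptor. All were named after their values were seen.

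The Csf1r locus held genes that moved in opposite directions. Pdgfrb, the PDGF receptor beta chain and a relative of Csf1r, lies 15536 bases away on the same strand. It had 0.264 and 0.241 RPKM with BBC1115, 0.788 and 0.415 RPKM with OTX-015, 3.61 and 3.75 RPKM with RVX-208, and 3.39 and 3.85 RPKM with DMSO. It fell by 1.88 on the log2 scale with BBC1115 (adjusted p = 1.93e-07) and by 1.54 with OTX-015 (adjusted p = 2.47e-06). Slc26a2, a sulphate transporter gene and, beyond the overlapping Hmgxb3, the nearest tested gene on the other side at 60769 bases, averaged 18.2 ± 2.92 RPKM with BBC1115, 10.1 ± 0.096 RPKM with OTX-015, 4.52 ± 0.174 RPKM with RVX-208 and 3.47 ± 0.799 RPKM with DMSO. It rose by 2.11 with BBC1115 (adjusted p = 1.27e-07) and by 1.32 with OTX-015 (adjusted p = 1.14e-05).

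Neighbours of other receptors were looked at in the same way. Kit's relatives Pdgfra, 376700 bases away, and Kdr, 276104 bases away, were not tested. Its nearest tested neighbours were Chic2, with a log2 fold change of -0.03 with BBC1115 (adjusted p = 0.82), and Srd5a3, with -1.12 (adjusted p = 9.27e-07). With OTX-015 Srd5a3 differed by -0.08 (adjusted p = 0.488), beside -1.72 for Kit. Beyond the beta chain pair, Ncf4, a subunit of the phagocyte oxidase, differed by -0.41 with BBC1115 (adjusted p = 0.0012), beside -2.27 for Csf2rb2 next to it with BBC1115. Mrps15, 2484 bases from Csf3r, differed by -0.53 with BBC1115 (adjusted p = 0.00372), beside -1.9 for Csf3r. Zc3h12a, on the other side of Csf3r, differed by 0.05 with BBC1115 (adjusted p = 0.704). Other neighbours fell by more, or by more than their receptor. Tst, beyond Csf2rb, differed by -1.06 with BBC1115 (adjusted p = 9.35e-05). Beside Il6ra (-0.16), Ube2q1 differed by -0.74 (adjusted p = 5.65e-06) and Atp8b2 by -0.72 (adjusted p = 0.000189), and beside Csf2ra (-0.34), Gm7102 differed by -0.66 (adjusted p = 0.000943). Opposite directions were seen around Il3ra (-0.6) too. There Psmd6 differed by -0.49 with BBC1115 (adjusted p = 0.000847) and Slc4a7 by 0.71 (adjusted p = 0.0002). With OTX-015 Psmd6 differed by -0.41 and Slc4a7 by 0.47.

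**Figure D5:**
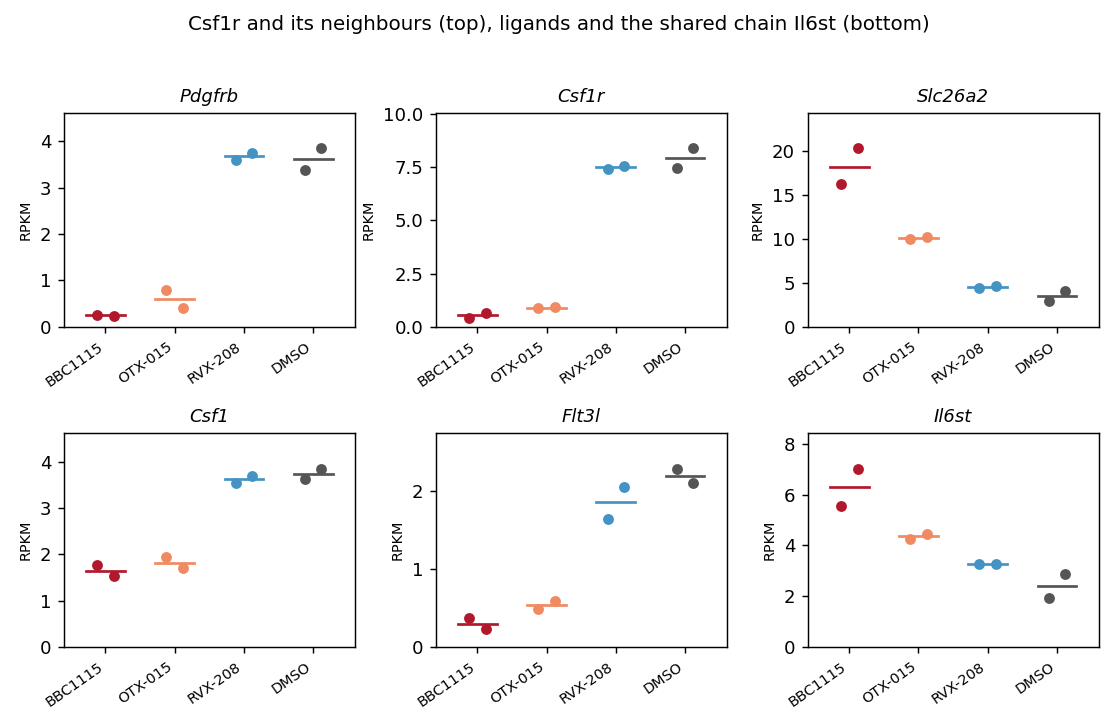
RPKM (vertical axes, from 0) of Pdgfrb, Csf1r and Slc26a2 in the top row and of the ligands Csf1 and Flt3l and the shared chain Il6st in the bottom row, by group. Points are the 2 libraries of a group and lines their mean. Slc26a2 and Il6st are highest with BBC1115 (means 18.2 and 6.29 RPKM), where Pdgfrb, Csf1r, Csf1 and Flt3l are lowest.

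Among the receptors themselves, patterns over the 8 libraries were compared by the root mean square difference of log2(RPKM + 1), after each gene's mean was subtracted. Kit and Csf3r were nearest to each other (0.137), then Csf2ra and Il3ra (0.145). Csf2rb and Csf2rb2 differed by 0.258, and Csf1r and Il6ra were the farthest pair (1.09). The libraries of a group share their treatment, so these distances are descriptions.

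By the same measure the genes most like Kit were Tsr1 (0.0416), Pprc1 (0.0594) and Bend3 (0.0618). Those most like Csf1r were Gas7 (0.106), Polr1b (0.114) and Rabgap1l (0.115). For Csf2rb they were Rassf2 (0.0592), Arid3a (0.0652) and Apobr (0.0679), and for Csf2rb2 Myo1g (0.0483), Ptpre (0.057) and Ggta1 (0.0711). For Csf3r they were Prmt3 (0.0554), Rcc2 (0.0612) and Ticam2 (0.0714). How common each pattern was differed widely: 28 genes lay within 0.2 of Csf1r, 101 of Csf2rb2, 143 of Kit, 183 of Csf2rb and 267 of Csf3r, but 2972 of Csf2ra, 1929 of Il6ra and 1479 of Il3ra. Nearest to these last were Swi5, Ppp1ca and Ddost for Csf2ra, D430042O09Rik, Smchd1 and Aff1 for Il6ra, and Ptprcap, Cd1d2 and F13a1 for Il3ra.

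The libraries held an estimated 10800000 to 18000000 reads each. Markers of other cell types were few but not all low. Of 11 lymphoid markers 1 was tested, Cd3e, Cd4, Ncr1, Ms4a1 and Pax5 were at 0, and their sum was at most 5.69 RPKM in any library. Of 8 stromal markers 2 were tested, Vim and Pdgfrb, the latter also the neighbour of Csf1r described above. Col1a2, Col3a1, Dcn and Lum were at 0, but the list summed to between 267 RPKM, in a BBC1115 library, and 461 RPKM, in an OTX-015 library. Most of that was Vim, vimentin, which leukocytes make too, at 282 ± 21.5 RPKM with BBC1115, 432 ± 40.0 RPKM with OTX-015 and 356 ± 22.0 RPKM with DMSO. The erythroid and megakaryocyte list had 1 of 10 genes tested, Tfrc, the transferrin receptor that dividing cells use widely, at 86.8 ± 4.19 RPKM with BBC1115, 74.6 ± 4.37 RPKM with OTX-015 and 111 ± 8.78 RPKM with DMSO. Hbb-bs was among those at 0. The dendritic list had 4 of 10 tested, 3 of which fell with BBC1115 and 3 with OTX-015, beside 49.3% and 40.0% of all tested genes.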

How the data were processed

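RNA from 8 RN2 cultures was sequenced, 2 in each of 4 groups, with a directional mRNA kit, per the labels' protocols. The authors deposited 1 table of RPKM for 20484 genes, with 1 column per library; all were used, and 0 columns were left out. STAR, Cufflinks and mm10 are named by the submitters' processing notes; the sources used here give no versions, annotation or strand setting. No further scaling is stated, so RPKM are relative within a library. Depth was estimated from the lowest RPKM of genes with 1 transcript and is approximate, so no intervals on counts are given and no count test was run.

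Genes with at least 1 RPKM in at least 2 libraries were kept (9975). One limma fit (limma 3.58.1, R 4.3.3, intensity trend) of the 4 group means to log2(RPKM + 1), with 4 residual degrees of freedom, gave 6 contrasts and their 95% intervals. P-values were adjusted by Benjamini-Hochberg over the kept genes, called below 0.05, and measure the spread between these libraries only. The fit was tested on simulated data in which few genes were changed, so that test does not cover shifts as broad as those seen here. Errors in results are SD over 2 libraries or 95% intervals. Positions, transcripts and coding sequences came from GENCODE on GRCm38, promoters from RefSeq (GRCm38.p6), and the coding alignment from Biopython 1.88; promoters of Csf1r and Csf2rb and protein sequences were not used here.

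The receptors and the other lists were chosen with earlier results of these data known. Outside the receptors, up to 3 called genes per list and compound with at least 5 RPKM in a group were taken, those with the largest log2 fold changes, and 3 nearest genes per receptor. Alternatives were the pseudocount, filter, scaling, variance model, a replicate block, fitting only the 2 groups compared, leaving out each library and summing the beta chains.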

Additional observations from a re-analysis of the deposited data

How the results depend on the processing

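Over 864 values of the 8 tested receptors, each recomputed under alternatives, 801 kept their direction and side of the threshold, 33 lost the call, 12 gained it and 18 turned sign, none of the 18 while past the threshold; the causes were not tested. All calls of Kit, Csf2rb2 and Csf3r against DMSO held, as did those of Csf1r. After quantile normalization the log2 fold change turned to 0.164 for Il6ra in BBC1115 against DMSO, to -0.00919 for Csf2rb2 in RVX-208 against DMSO, to 0.0869 for Kit, 0.00015 for Il3ra and 0.000708 for Il6ra in BBC1115 against OTX-015, to 0.00357 for Il3ra in BBC1115 against RVX-208, and to 0.0159 for Csf2ra and 0.00342 for Il3ra in OTX-015 against RVX-208. Upper-quartile scaling turned Il6ra in BBC1115 against DMSO to 0.0632 and Csf2ra in OTX-015 against RVX-208 to 0.00459. TPM turned Csf1r and Csf2ra in RVX-208 against DMSO to 0.0178 and 0.0155. Leaving out 1 library at a time gave -0.348 to 0.0285 for Il6ra with BBC1115 and -0.152 to 0.224 with OTX-015, against DMSO. It gave -0.144 to 0.0074 for Csf1r and -0.0662 to 0.179 for Csf2rb2 in RVX-208 against DMSO, and -0.344 to 0.0405 for Il3ra in OTX-015 against RVX-208.

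With no filter, 1 receptor, Flt3, was called higher in BBC1115 against DMSO and 1 in BBC1115 against OTX-015, and Flt3 raised the receptors called lower in OTX-015 against RVX-208 to 6 (5 with the filter). BBC1115 against OTX-015 called 4 receptors lower, but 2 with a pseudocount of 5, 2 with the filter at 5 RPKM and 2 after quantile normalization, and between 2 and 4 with a library left out. Csf3r did not reach the filter at 5 RPKM.

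Counts of all genes moved more. RVX-208 against DMSO called 9 genes higher, but 3 with no filter, 4 with only the 2 groups compared, and 3 to 625 with a library left out. It called 8 lower, but 4 with a pseudocount of 0.1, 40 with one of 5, 4 with no filter, 3 after upper-quartile scaling, 4 with TPM, 3 with only the 2 groups compared, and 3 to 360 with a library left out; both maxima came without DMSO replicate 2, and no receptor was called even then. Genes higher numbered 2418 in OTX-015 against DMSO and 3641 after quantile normalization, 2382 in BBC1115 against RVX-208 and 3745 after it, and 1752 in OTX-015 against RVX-208, with 2808 after upper-quartile scaling and 3171 after quantile normalization. In BBC1115 against OTX-015 1413 were higher, with 2123 after upper-quartile scaling, 2269 after quantile normalization, 890 with TPM and 796 to 1639 with a library left out, and 2964 were lower, with 1867 to 3228. After upper-quartile scaling 3743 genes were higher and 3960 lower in BBC1115 against DMSO (2629 and 4915 before it), and 3561 and 3066 in OTX-015 against DMSO (2418 and 3992 before it).

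No label says that replicate numbers pair libraries, so the numbers were not taken as pairs. The correlation of same-numbered deviations was 0.524 for DMSO with BBC1115. For the other pairs of groups it ran from -0.0845 to 0.0551. With a replicate block RVX-208 against DMSO called 20 genes lower, and Csf2ra in OTX-015 against DMSO (adjusted p = 0.028) and Il3ra in BBC1115 against RVX-208 (adjusted p = 0.0242) became called; no other call of a receptor changed. Receptors under 1 RPKM rest on few reads, which limits Flt3 most.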
